A study of Mus musculus with 6 samples.

Results

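Amino acid and peptide transporter genes were taken from the deposited gene tables by name: the families Slc1a, Slc3a, Slc7a, Slc15a, Slc36a, Slc38a and Slc43a, together with Slc6a14, Slc6a18, Slc6a19, Slc6a20a and Slc6a20b. The rule found 53 of the 23699 genes listed, and used no measured value. One of the 53, Slc7a6os, is a neighbour of Slc7a6 that carries its name without being a transporter, which leaves 52 transporter or heavy-chain genes.

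The genes were measured by RNA-seq in mouse duodenum, in 3 control and 3 mutant libraries from adult mice of 6 weeks on a mixed background. Controls were Nkx2.2flox/+, with no Cre named in their labels. Mutants 1 and 2 were Nkx2.2flox/flox; Villin-Cre/+, and mutant 3 also carried Rosa26Tomato/+. Villin drives Cre in the intestinal epithelium, so the genotype was made to delete the transcription factor Nkx2.2 there, while the RNA came from the whole wall of the first 2 cm after the stomach. In such bulk RNA, fewer cells of a type and less RNA per cell cannot be told apart. The labels do not say that each library is a separate animal, so p-values measure only the spread between these libraries.

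Dietary protein reaches the enterocyte as free amino acids and as short peptides. At the brush border, proton-coupled peptide uptake runs on Slc15a1 (PepT1), sodium-coupled uptake of neutral amino acids on Slc6a19 (B0AT1), and exchange of cystine and cationic amino acids on Slc7a9 bound to its heavy chain Slc3a1. At the basolateral side, Slc7a7 and Slc7a8, both bound to the heavy chain Slc3a2, and the uniporter Slc43a2 pass amino acids toward the blood. Other members take glutamine and glutamate into cells or work in lysosomes.

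The libraries held about 21000000 to 26300000 fragments, as rebuilt from the deposited coverage and FPKM (fragments per kilobase of transcript, scaled to the size of the library). Nkx2-2 itself stood at 1.13, 1.32 and 0.779 FPKM across controls 1 to 3 and, in the same numbering, 1.10, 0.736 and 0.221 FPKM across the mutants. Mutant 1 lay within the range of the controls. The labels do not say which exons were flanked by lox sites, so these values check no label, and control and mutant are used here as the labels give them. Of 13596 genes with at least 0.5 FPKM in at least 3 libraries, 3 passed an adjusted p of 0.05 (limma, Benjamini-Hochberg), which is 0.0221%. They were Snora17, Ghrl and Tac1, named here after their values were seen, and none is a transporter gene.

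Of the 53 genes, 38 passed the filter on low values and 15 did not. By mean FPKM over the 6 libraries, 17 stood at 10 or more, 14 between 1 and 10, 6 between 0.5 and 1, and 16 under 0.5. Their summed FPKM was 0.132% to 0.190% of all FPKM in a library, and the 10 genes of highest level held 79.1% to 87.4% of that sum. The order of mean levels, per transcript length, began with Slc6a19 (204 FPKM), Slc7a9 (133), Slc3a1 (107), Slc3a2 (103), Slc15a1 (83.2), Slc7a7 (80.4), Slc6a20a (69.3), Slc7a8 (54.7), Slc43a2 (52.8) and Slc7a15 (38.1). Down to Slc36a1 at 11.8 FPKM, the ranges of neighbours in this order overlapped over the 6 libraries, so single steps are not separated by the spread. The 6 libraries nevertheless all placed Slc7a9 above Slc3a1 and Slc43a2 above Slc7a15. The 3 markers of the absorptive brush border, Slc15a1, Slc6a19 and Slc7a9, were thus among the 5 transporter genes of highest level.

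**Figure D1:**
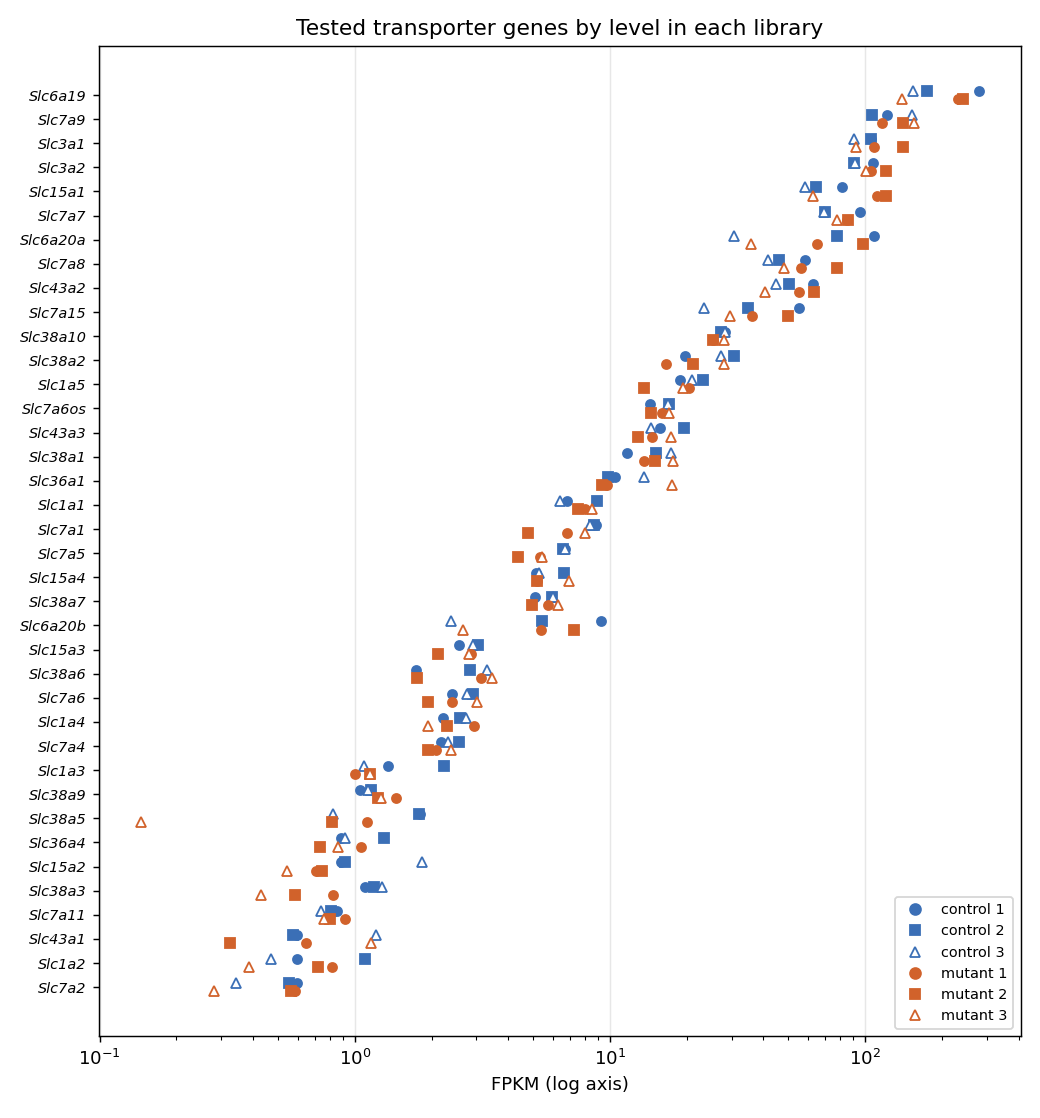
FPKM of the 38 tested genes of the rule in each library, on a log axis, ordered by mean level; blue is control, orange is mutant, and open triangles are control 3 and mutant 3. Slc6a19 leads with 139 to 279 FPKM, and for most genes the blue and orange points share a range.

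After adjustment over all genes, 0 of the 38 tested genes passed (limma, adjusted p = 0.999 for each), beside the 0.0221% of all genes that did. At an unadjusted p under 0.05, limma called 2 of the 38 lower in mutants and 0 higher, where 1.63% of all tested genes were called lower, 1.8% higher and 3.43% in either direction. With the replicate number as a block, 5 of the 38 were lower and 1 was higher at an unadjusted p under 0.05, where 2.93% of all tested genes were lower, 3.82% higher and 6.76% either. Without mutant 3 the counts were 3 lower and 1 higher, where 6.32% and 4.11% of all tested genes were. Without control 3 and mutant 3 they were 6 lower and 1 higher, where 6.29% and 5.92% of all tested genes were. Limma-voom on the rebuilt fragments also left 0 past the adjusted threshold. The log2 change was below 0 for 22 of the 38 genes, or 57.9%, against 55.8% of all tested genes. The median log2 change of the 38 was -0.05, and that of all tested genes was -0.02. Changes are on the scale of log2(FPKM + 0.5), which understates the change of genes of low level. The 95% interval of each change, given below for the genes described, shows what size of difference these libraries leave possible.

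**Figure D2:**
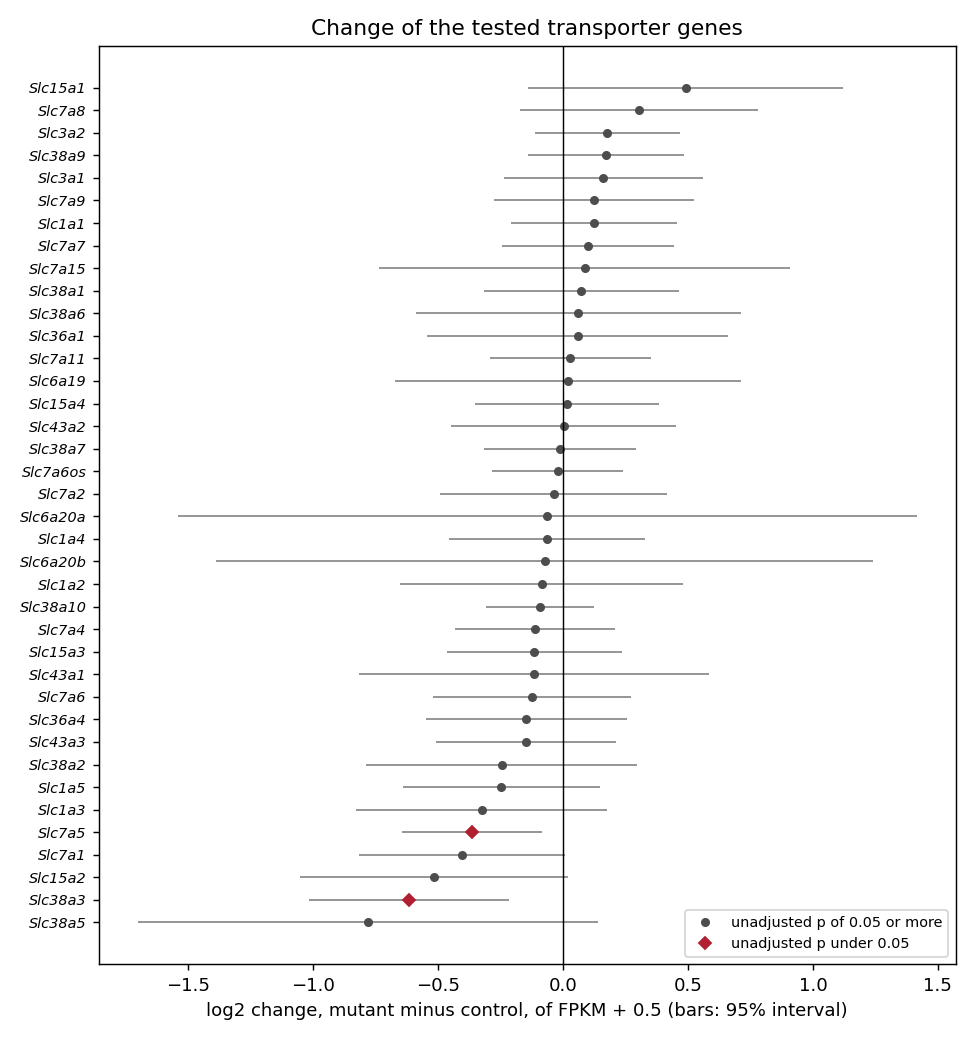
Log2 change (mutant minus control, of FPKM + 0.5) of the 38 tested genes, with bars for the 95% interval from limma; red diamonds mark an unadjusted p under 0.05. Slc38a3 and Slc7a5 are the only such genes, and Slc15a1 has the highest estimate, 0.49.

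Slc15a1 (chr14:121858843-121904476, mm9), the peptide transporter, read 81.5, 64.2 and 58.1 FPKM across controls 1 to 3, against 112, 121 and 62.6 FPKM across mutants 1 to 3. Mutants 1 and 2 lay above every control, and mutant 3 lay inside the control range. The means were 67.9 ± 12.2 (SD, n = 3) and 98.5 ± 31.4 FPKM (SD, n = 3), a ratio of 1.45. The log2 change was 0.49 ± 0.27 (SE), with a 95% interval of -0.14 to 1.12, and did not pass (limma, adjusted p = 0.999). In the fit with the block, the unadjusted p of limma was 0.0190 and the adjusted p 0.597. Without control 3 and mutant 3 together, a setting chosen after seeing the data that leaves 2 libraries a group, the log2 change was 0.68 and passed at an adjusted p of 0.0390 (limma); 1.4% of all genes passed there. With single libraries left out it ran from 0.31 without mutant 2 to 0.79 without mutant 3, where the adjusted p was 0.154 (limma). Over all settings its adjusted p ran from 0.0390 to 1.

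Slc15a2, a peptide transporter of higher affinity best known from the kidney, read 0.885, 0.915 and 1.84 FPKM across controls, against 0.704, 0.741 and 0.545 FPKM across mutants. The groups did not overlap, but control 3 alone stood far above the other controls. Its log2 change was -0.52 ± 0.23 (SE), with an interval of -1.05 to 0.02 (limma, adjusted p = 0.999), -0.27 without control 3, and -0.20 without control 3 and mutant 3. Slc15a3 and Slc15a4, which carry histidine and peptides across lysosomal membranes, had ranges of 2.12 to 3.03 and 5.13 to 6.92 FPKM, with groups that overlapped. Slc15a5 was listed above 0 in 1 library, at 0.0187 FPKM.

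Slc6a19 (chr13:73818605-73838143, mm9) read 279, 174 and 154 FPKM across controls, against 231, 243 and 139 FPKM across mutants. The 2 lowest libraries were mutant 3 and control 3, and the group means were nearly equal at 203 ± 67.0 and 204 ± 56.9 FPKM (SD, n = 3 each). The log2 change was 0.02, with a 95% interval of -0.67 to 0.71, so these libraries leave a change within those bounds possible. Its neighbour Slc6a18, a related transporter best known from the kidney, lies 3.13 kb away and had a mean of 0.177 FPKM, 1150-fold below Slc6a19.

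Slc6a20a and Slc6a20b, the mouse pair related to the human proline transporter SLC6A20, lie 4.34 kb apart on chromosome 9. Slc6a20a (chr9:123546025-123587950, mm9) read 108, 77.7 and 30.8 FPKM across controls, against 64.7, 98.6 and 35.6 FPKM across mutants. Slc6a20b read 9.27, 5.44 and 2.39 FPKM across controls, against 5.38, 7.24 and 2.67 FPKM across mutants. Both were lowest in control 3 and mutant 3, and both were highest in control 1. The ratio of Slc6a20a to Slc6a20b stayed between 11.7 and 14.3 over the 6 libraries, while each gene varied more than 3-fold. Their transcripts are 92.8% identical over 1734 aligned bases, so the split of reads between them is uncertain. In the authors' deposited table, mean normalised counts in controls and mutants were 2425 and 2372 for Slc6a20a. Those of Slc6a20b were 77.0 and 54.7. Whether reads shared by both genes made their levels move together was not tested. No other pair among the 53 genes aligned over at least 300 bases at 80% identity. The intervals of their log2 changes were wide, -1.54 to 1.41 for Slc6a20a and -1.39 to 1.24 for Slc6a20b.

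The promoters of this pair are shown because their listed levels moved together across libraries although 1 was listed far below the other. That shared movement rests on the uncertain split of reads given above. Slc3a1 and Slc7a9 are shown as the partners whose levels moved apart. Windows run from 250 bases before to 50 after the annotated start, read 5′ to 3′ on the gene's strand, from RefSeq with build GRCm38.p6. They lie at chr9:123678783-123679082 (minus strand), chr9:123632489-123632788 (minus), chr17:85028097-85028396 (plus) and chr7:35448842-35449141 (plus, the first of its 2 windows). Capitals mark matches on either strand to GTTAAT (a core of HNF1 sites), AGATAA for GATA factors, TTTATNG for CDX factors and CAAAGTC (a core of HNF4 sites); no overlap between motifs occurs in these 4.
Slc6a20a: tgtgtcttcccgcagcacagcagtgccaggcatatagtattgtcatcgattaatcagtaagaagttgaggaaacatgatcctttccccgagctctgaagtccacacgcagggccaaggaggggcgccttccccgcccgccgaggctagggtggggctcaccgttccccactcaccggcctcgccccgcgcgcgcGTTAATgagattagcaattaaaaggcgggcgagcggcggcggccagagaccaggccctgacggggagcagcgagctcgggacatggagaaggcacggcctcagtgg
Slc6a20b: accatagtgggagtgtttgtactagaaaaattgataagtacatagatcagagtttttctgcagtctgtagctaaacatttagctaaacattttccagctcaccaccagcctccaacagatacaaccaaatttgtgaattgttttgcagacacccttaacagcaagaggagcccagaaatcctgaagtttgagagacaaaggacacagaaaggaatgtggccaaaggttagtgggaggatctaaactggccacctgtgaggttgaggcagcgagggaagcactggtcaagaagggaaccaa
Slc3a1: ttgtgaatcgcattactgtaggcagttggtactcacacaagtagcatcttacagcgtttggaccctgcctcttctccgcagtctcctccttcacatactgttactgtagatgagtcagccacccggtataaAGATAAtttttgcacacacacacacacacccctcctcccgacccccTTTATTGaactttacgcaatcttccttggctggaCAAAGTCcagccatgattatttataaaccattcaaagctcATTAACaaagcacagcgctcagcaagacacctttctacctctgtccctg
Slc7a9: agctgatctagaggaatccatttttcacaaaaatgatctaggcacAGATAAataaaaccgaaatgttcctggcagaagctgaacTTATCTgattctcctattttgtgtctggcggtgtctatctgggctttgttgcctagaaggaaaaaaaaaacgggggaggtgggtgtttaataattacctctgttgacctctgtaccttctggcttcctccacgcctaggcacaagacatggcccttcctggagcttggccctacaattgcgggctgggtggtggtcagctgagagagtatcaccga
The Slc6a20a window held GTTAAT once, at -56 from the start, and the Slc6a20b window held none of the 4 motifs. The Slc3a1 window held each of the 4 motifs once, and the first window of Slc7a9 held AGATAA in both orientations. The second window of Slc7a9, not shown, held none of the 4 motifs. Among 32851 promoter windows, GTTAAT occurred in 7.1%, AGATAA in 11.2%, TTTATNG in 10.9% and CAAAGTC in 4.4%. Among the 51 windows of the 40 matched transporter genes the shares were 9.8%, 11.8%, 3.9% and 3.9%. A match describes letters, not a bound site.

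Slc7a9 (chr7:36234111-36251053, mm9) read 122, 107 and 153 FPKM across controls, against 117, 142 and 156 FPKM across mutants. Control 3 and mutant 3 were the 2 highest libraries, the reverse of Slc6a19. The log2 change of Slc7a9 was 0.12 ± 0.17 (SE), with an interval of -0.28 to 0.52. The heavy chain Slc3a1 (chr17:85427687-85463581, mm9) read 106, 106 and 90.5 FPKM across controls, against 109, 141 and 92.3 FPKM across mutants, lowest in control 3 and mutant 3. Its log2 change was 0.16 ± 0.17, with an interval of -0.24 to 0.56. The ratio of Slc7a9 to Slc3a1 within a library was 1.15, 1.01 and 1.69 in controls and 1.08, 1.00 and 1.68 in mutants. It stood apart in control 3 and mutant 3 and overlapped between genotypes (exact two-sided permutation test, p = 0.7).

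Slc3a2, the heavy chain of the basolateral exchangers, read 107, 90.9 and 91.2 FPKM across controls, against 106, 121 and 101 FPKM across mutants. Its light chain Slc7a7 ranged from 69.2 to 95.4 FPKM and Slc7a8 from 41.6 to 77.9 FPKM. The log2 changes were 0.18 (interval -0.11 to 0.47), 0.10 (-0.24 to 0.45) and 0.30 (-0.17 to 0.78), and the groups overlapped for each of these 3 genes. The ratio of Slc7a7 to Slc3a2 ran from 0.710 to 0.888 and that of Slc7a8 to Slc3a2 from 0.459 to 0.646. Neither differed between genotypes beyond the spread (exact permutation tests, p = 0.6 and p = 0.5). Slc15a1 over Slc9a3, the sodium-proton exchanger of the brush border, was 2.96, 2.03 and 1.15 in controls and 4.12, 4.15 and 1.27 in mutants (exact permutation test, p = 0.5). Within same-numbered pairs this last ratio was higher in the mutant in 3 of 3 pairs, by 0.55 on the log2 scale on average, with an exact paired p of 0.25, the smallest that 3 pairs allow. The adjusted p over the 5 unpaired exact tests was 0.7 for each of these 4 ratios, and 3 libraries against 3 cannot go below 0.1.

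**Figure D3:**
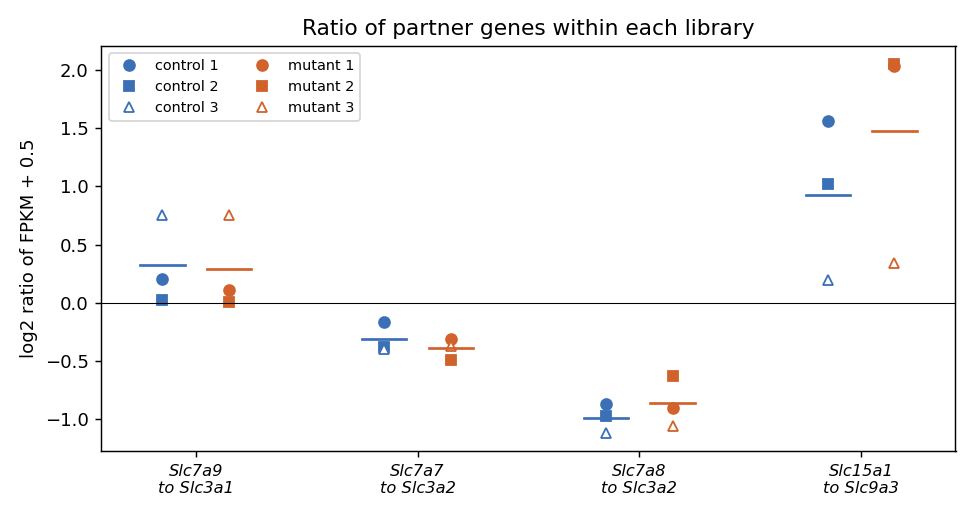
Log2 ratio of FPKM + 0.5 between partner genes within each library, with bars for group means; open triangles are control 3 and mutant 3. Slc7a9 to Slc3a1 is highest, and Slc15a1 to Slc9a3 lowest, in these 2 libraries of either genotype.

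Among the other SLC7 exchangers, Slc7a5, the large neutral amino acid exchanger LAT1 that also binds Slc3a2, read 6.64, 6.53 and 6.68 FPKM across controls, against 5.34, 4.37 and 5.42 FPKM across mutants. Every mutant lay below every control, and the controls differed little from each other. The means were 6.62 ± 0.0780 and 5.04 ± 0.582 FPKM (SD, n = 3 each), a ratio of 0.762. The log2 change was -0.37 ± 0.12 (SE), with an interval of -0.65 to -0.09; limma gave an unadjusted p of 0.0173 and an adjusted p of 0.999. Over all settings the adjusted p ran from 0.351 to 1, and the log2 change from -0.42 to -0.28, the latter without mutant 2, where the unadjusted p of limma was 0.0602. Slc7a15 read 55.0, 34.8 and 23.3 FPKM across controls, against 36.2, 49.9 and 29.6 FPKM across mutants, lowest in control 3 and mutant 3. Slc7a11, the cystine-glutamate exchanger, stayed between 0.736 and 0.917 FPKM.

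In the cationic branch, Slc7a1 (CAT1), which takes up arginine and lysine, read 8.82, 8.68 and 8.38 FPKM across controls, against 6.78, 4.79 and 8.01 FPKM across mutants. Every mutant again lay below every control, mutant 3 by the smallest margin. On the log2 scale the change was -0.40 ± 0.18 (SE), with an interval of -0.82 to 0.01 (limma, adjusted p = 0.999). It was -0.21 without mutant 2, the lowest library, and -0.56 without mutant 3. Slc7a2 and Slc7a4 overlapped between groups, at 0.281 to 0.596 and 1.93 to 2.55 FPKM.

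Slc38a3 (SNAT3, chr9:107553486-107571299, mm9), a sodium-coupled glutamine transporter best known from liver and kidney, read 1.09, 1.19 and 1.28 FPKM across controls, against 0.820, 0.584 and 0.428 FPKM across mutants. Every mutant lay below every control. Its low level rests on 21 to 64 rebuilt fragments per library. The means were 1.19 ± 0.0932 and 0.611 ± 0.198 FPKM (SD, n = 3 each), a ratio of 0.514. The log2 change was -0.62 ± 0.17 (SE), with an interval of -1.02 to -0.22; limma gave an unadjusted p of 0.00794 and an adjusted p of 0.999. Over all settings its adjusted p ran from 0.401 to 1. Markers of exocrine pancreas and of Brunner gland and stomach also differed between these libraries. The summed FPKM of 10 exocrine pancreas markers, with each listed copy of Amy2a5, was 21070, 20630 and 12970 across controls, against 13320, 8177 and 3000 across mutants. That of 6 Brunner gland and stomach markers was 2692, 8336 and 3105 across controls, against 4800, 1094 and 140 across mutants. Their part in the values of Slc38a3 was not tested. In the authors' deposited table Slc38a3 also had the smallest p of the 52 members with one, 0.0117, at a fold of 0.545.

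Slc38a5 (SNAT5), a related glutamine transporter, read 1.81, 1.79 and 0.823 FPKM across controls, against 1.12, 0.817 and 0.145 FPKM across mutants. Mutant 1 lay above control 3, and otherwise every mutant lay below every control. That gave a log2 change of -0.78 ± 0.39 (SE), with an interval of -1.70 to 0.14 (limma, adjusted p = 0.999). With the replicate block the unadjusted p of limma was 0.00187 and the adjusted p 0.285. The pancreas marker sum given beside Slc38a3 placed the 6 libraries in the same order as Slc38a5. Slc38a5 was the only one of the 38 tested transporter genes with that order, and 0 of the 38 had the order of the enterocyte or smooth muscle marker sums. Of all tested genes 0.0662% shared the pancreas order, among them Pnlip and Cpa1, which are part of that sum. As the match was found by looking over these genes and sums, that share does not measure how unusual it is. Parts of the order were near ties in Slc38a5, with controls 1 and 2 at 1.81 and 1.79 FPKM and control 3 and mutant 2 at 0.823 and 0.817 FPKM. The match of order therefore rests in part on very small differences. The part of pancreatic RNA in the values of Slc38a5 was not tested. The log2 change was -0.39 without mutant 3, the smallest with a library left out, and -1.05 without control 3 or without mutant 1.

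The other SLC38 genes overlapped between groups, apart from Slc38a9, the lysosomal arginine sensor. It read 1.05, 1.16 and 1.13 FPKM across controls, against 1.45, 1.24 and 1.27 FPKM across mutants, each mutant above each control. Its log2 change of 0.17 had an interval of -0.14 to 0.48 (limma, adjusted p = 0.999). Counting it, 1 of the 38 genes stood higher in every mutant, against 4.05% of all tested genes, and 4 (Slc15a2, Slc38a3, Slc7a1 and Slc7a5) stood lower in every mutant, against 3.71%; 7.75% of all tested genes did either. Among the 38 tested genes Slc38a10 was the steadiest by the ratio of highest to lowest library, 25.3 to 28.4 FPKM. Slc38a2 (SNAT2), a sodium-coupled carrier of small neutral amino acids, ranged from 16.5 to 30.7 FPKM, and Slc38a1 (SNAT1) from 11.7 to 17.7 FPKM. Their log2 changes were -0.25 (interval -0.79 to 0.30) and 0.07 (-0.32 to 0.46).

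In the remaining families the groups overlapped for every tested gene. Slc43a2 (LAT4) read 62.4, 50.3 and 44.9 FPKM across controls, against 55.3, 63.3 and 40.5 FPKM across mutants, lowest in mutant 3 and control 3, with a log2 change of 0.00 and an interval of -0.45 to 0.45. Slc43a3, known as a nucleobase transporter, ranged from 12.9 to 19.6 FPKM (log2 change -0.15, interval -0.51 to 0.21). Slc1a5 (ASCT2), which exchanges neutral amino acids including glutamine, ranged from 13.6 to 23.2 FPKM (-0.25, -0.64 to 0.15). Slc1a1, the epithelial glutamate transporter, ranged from 6.40 to 8.92 FPKM (0.12, -0.21 to 0.46). Slc36a1 (PAT1), which moves small amino acids with protons, ranged from 9.29 to 17.6 FPKM (0.06, -0.54 to 0.66) and was highest in mutant 3 and control 3. Slc7a6os ranged from 14.4 to 17.1 FPKM (-0.02, -0.28 to 0.24).

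The 15 untested genes stayed under 0.5 FPKM in all 6 libraries. Slc6a14, a broad carrier of neutral and cationic amino acids, read 0.0118 to 0.130 FPKM, and Slc7a12 was listed at 0 throughout. Several lie on the same chromosome as a member of higher level: Slc7a10 at 0.0595 FPKM is 248 kb from Slc7a9, Slc36a2 at 0.127 FPKM is 19.3 kb from Slc36a1, and Slc38a4 at 0.249 FPKM is 295 kb from Slc38a2. Slc7a7 and Slc7a8, 305 kb apart on chromosome 14, are by contrast both of high level, within 1.47-fold of each other. In the authors' deposited table Slc38a11 had a mean normalised count of 11.6 in controls and 2.78 in mutants, with p = 0.0377 and an adjusted p of 1. Among the 52 members with a p in the authors' deposited table, 3 had p under 0.05 (Slc38a3, Slc38a11 and Slc7a1), where 2.16% of all genes did, and 0 had an adjusted p under 0.05, where 0.14% of all genes did.

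The spread of each gene over the 6 libraries can be split by replicate number and by genotype. The number holds 2 degrees of freedom and the genotype 1, so an even split would give them mean shares of 40% and 20%. Such shares are skewed and their medians lie below these means, so medians are set only beside those of all tested genes. The median share of the sum of squares that went with the number was 41.6% over the 38 tested genes, against 13.6% with the genotype; over all tested genes these medians were 49.3% and 11.4%. The median over the transporter genes was thus below that of all tested genes for the number and slightly above it for the genotype. Neither difference was tested. The share with the number was 87.4% for Slc6a20a, 85.6% for Slc6a20b and 79.7% for Slc6a19, and 80.3% went with the genotype for Slc7a5. Control 3 and mutant 3 were the lowest pair of libraries in 10 of the 38 genes, or 26.3%, against 11.4% of all tested genes. These were Slc15a1, Slc1a2, Slc3a1, Slc43a2, Slc6a19, Slc6a20a, Slc6a20b, Slc7a11, Slc7a15 and Slc7a2. They were the highest pair in 6, or 15.8%, against 25.9% of all tested genes: Slc36a1, Slc38a1, Slc38a6, Slc38a7, Slc43a1 and Slc7a9.

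Marker sums moved with these libraries. The sum of 7 enterocyte markers was 16810 FPKM in control 3 and 20590 in mutant 3, against 34600 to 44400 in the other 4 libraries. The sum of 4 smooth muscle markers was 685 and 535 FPKM in the same 2 libraries, against 329 to 398, and that of 2 B and plasma cell markers was 1575 and 1435, against 706 to 908. All 7 enterocyte markers and all 4 smooth muscle markers were detected. The enterocyte sum is led by its genes of highest level, and the fall in control 3 and mutant 3 was uneven over the list. Apoa4 read 2676 and 3924 FPKM in these libraries, against 7837 to 10370 elsewhere. Vil1 read 561 and 528 FPKM, against 578 to 702. Fabp1 in mutant 3, at 5552 FPKM, lay above control 1, at 5477 FPKM. The part of cell makeup in the transporter values was not tested.

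**Figure D4:**
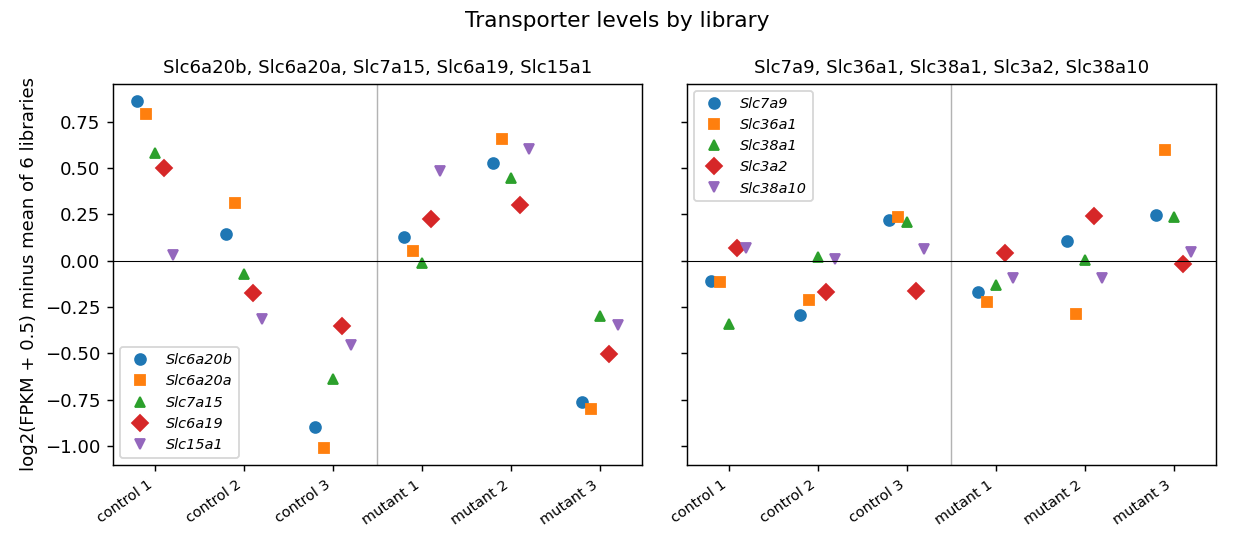
Log2(FPKM + 0.5) of 10 transporter genes minus each gene's mean over the 6 libraries, by library, controls left of the grey line and mutants right of it. Genes of the left panel are lowest in control 3 and mutant 3 of either genotype, while Slc7a9, Slc36a1 and Slc38a1 of the right panel are highest there.

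Of 81 isoforms of the 53 genes, 49 were tested and 0 passed an adjusted p of 0.05 (limma), beside 0.00617% of all tested isoforms; 2 had an unadjusted p under 0.05, where 3.79% of all did. One is the single isoform of Slc7a5. The other, the Slc38a3 isoform of 2442 bases, read 1.09, 0.913 and 1.05 FPKM across controls, against 0.243, 0.584 and 0.127 FPKM across mutants. Its share of Slc38a3 was split unevenly between libraries of a group, with 29.7% in mutant 1 and nearly all in mutant 2.

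Slc7a7 has isoforms with 3 annotated starts. That of 2126 bases made up 5.21%, 18.8% and 43.2% of the gene's FPKM in controls and 0.00202%, 15.2% and 50.9% in mutants. Its share was highest in control 3 and mutant 3, while the level of the whole gene varied only 1.38-fold. The Slc7a9 isoform of 1814 bases was instead lowest in those libraries, at 16.4%, 9.01% and 0.115% in controls and 15.2%, 10.4% and 2.97% in mutants. The Slc43a2 isoform of 6929 bases was also lowest there, at 39.8%, 30.3% and 21.1% in controls and 31.0%, 29.4% and 14.3% in mutants. Over the 23 tested isoforms of the 12 transporter genes with several isoforms, the share was lowest in control 3 and mutant 3 for 6. It was highest there for 6 and neither for 11, and shares of 1 gene depend on each other. Isoforms of Slc3a2, Slc38a1, Slc43a1 and Slc1a2 were also among those lowest or highest in these libraries. Slc7a7, Slc7a9 and Slc43a2 were chosen after their values were seen, and the shares are estimates of reads split between isoforms of much shared sequence.

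**Figure D5:**
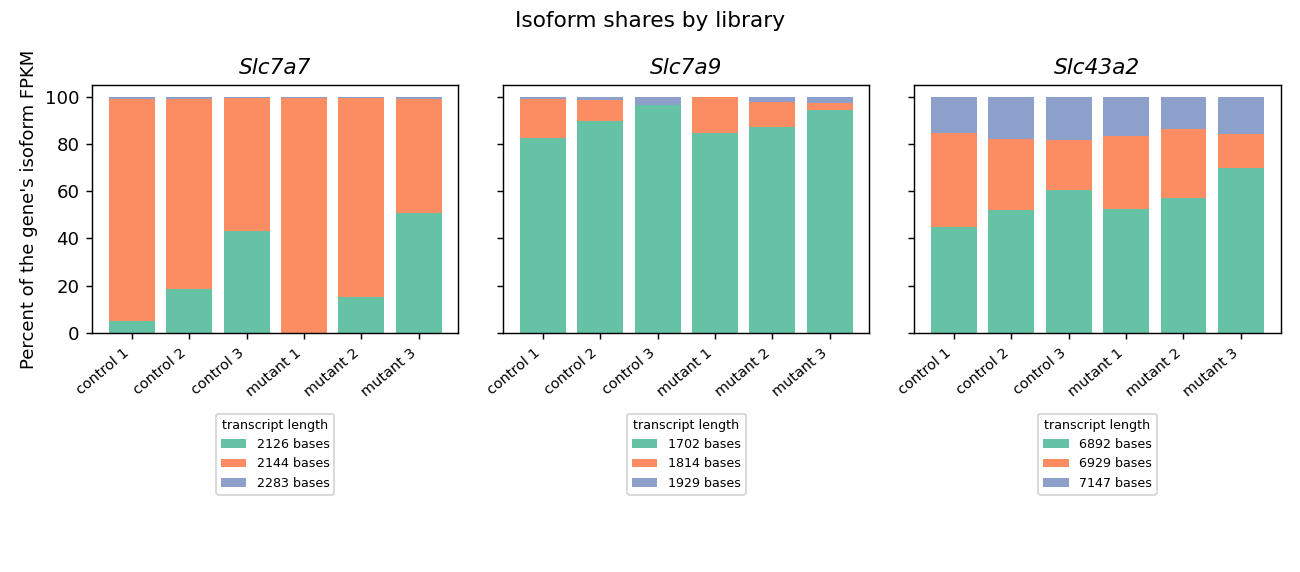
Percent of the summed isoform FPKM of Slc7a7, Slc7a9 and Slc43a2 taken by each isoform in each library, with isoforms named by transcript length. The Slc7a7 isoform of 2126 bases reaches 43.2% and 50.9% in control 3 and mutant 3 and 18.8% or less elsewhere.

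Genes that work beside the transporters gave 0 calls after adjustment. Of 7 partner and accessory genes, 0 had an unadjusted p under 0.05 (limma), where 3.43% of all tested genes did, and their median log2 change was 0.16, beside -0.02 for all tested genes. Atp1b1, a subunit of the sodium pump that drives sodium-coupled uptake, was higher in every mutant than in every control, at 1075, 1064 and 968 FPKM across mutants against 899, 815 and 919 FPKM across controls. Its log2 change of 0.24 had an interval of -0.09 to 0.57 (limma, adjusted p = 0.999).

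Of 15 tested genes of protein digestion, 2 had an unadjusted p under 0.05, both higher in mutants, where 1.8% of all tested genes were. Xpnpep2, which removes residues ahead of proline, read 5.20, 4.30 and 5.39 FPKM across controls, against 13.9, 11.3 and 7.78 FPKM across mutants, without overlap. Its log2 change was 1.04 ± 0.21 (SE). Limma gave an unadjusted p of 0.00126 and an adjusted p of 0.61, and an adjusted p of 0.0206 without mutant 3. Dpp4, a brush border peptidase that cleaves after proline, had a log2 change of 0.56 ± 0.20 and overlapped between groups. Ace, a peptidase of the brush border, had a log2 change of 0.84 ± 0.37 with an interval of -0.06 to 1.75, and passed with the replicate block (limma, adjusted p = 0.0259). Without control 3 and mutant 3 together, Xpnpep2, Ace and Dpp4 were higher at adjusted p of 0.00390, 0.0310 and 0.0468 (limma). There 1.4% of all genes passed, and the other digestion genes recomputed singly did not. Of 9 tested amino acid transporters outside the named families, 0 had an unadjusted p under 0.05, where 3.43% of all tested genes did. Slc6a8, the creatine transporter, led them at 205 to 384 FPKM, and Slc25a15, the mitochondrial ornithine carrier, followed at 96.1 to 130 FPKM.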

How the data were processed

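The series holds RNA-seq of 3 control and 3 mutant duodenum samples. The authors deposited FPKM and a coverage signal per gene and isoform for each library, per the file headers, and 1 table of mean normalised counts, fold (ratio), log2 fold and p-values between the groups. Per the submitters' processing notes, the tools were Cufflinks, TopHat, DESeq and CASAVA 1.8.2 and the build mm9, with no options given; whether strand was used is not given in the sources used here. Coverage per FPKM gave the fragments per library, and 92.8% of 15197 low values came out whole within 0.1.

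From the deposited FPKM, log2(FPKM + 0.5) was fitted with limma 3.58.1 in R 4.3.3 (trend and robust prior, 2 groups, no block) over 13596 genes with at least 0.5 FPKM in at least 3 libraries, with Benjamini-Hochberg adjustment over all of them and a threshold of 0.05. Procedures were tested on simulated data. Ratios of partner genes were compared by exact permutation over 20 arrangements and, added later, by sign flips within same-numbered pairs; 1 of the 5 ratios is not reported here. Transcripts were compared with blastn 2.17.0. Members and lists were chosen with earlier results of these data known. Named with values were members of at least 10 FPKM, members at an unadjusted p under 0.05, the 3 markers, and up to 6 further members of highest level below that; of each other list, up to 3 genes of smallest p and the 2 of highest level. Further genes (Slc15a2 to Slc15a5, Slc6a18, Slc6a20b, Slc7a2, Slc7a4, Slc7a11, Slc38a5, Slc38a9 and the untested ones named) were added after their values were seen.

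Deviations of same-numbered libraries from their group means correlated at 0.26, 0.25 and 0.58 for numbers 1, 2 and 3, so the numbers were treated as pairs in an alternative fit. What the number stands for is not in the labels, and control 1 with mutant 2 gave 0.30. Alternatives were other filters, pseudocounts and scalings, the replicate block, each library left out, limma-voom on rebuilt fragments, leaving out transcripts under 200 bases, and leaving out control 3 and mutant 3 together.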

Additional observations from a re-analysis of the deposited data

How the results depend on the processing

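The count of all genes called, 3 as reported, was 1 without a filter on low values, 1 with upper quartile scaling, 22 with the replicate block, 0 with limma-voom, 0 without transcripts under 200 bases, and 0 to 63 when a library was left out, the highest being without mutant 3. Without control 3 and mutant 3 together it was 186; this setting, limma-voom and the length limit were chosen after seeing the data. Transporter genes called numbered 0 in every setting except that last one, where Slc15a1 made it 1. Transporter genes at an unadjusted p under 0.05, 2 as reported, numbered 4 with TPM scaling, 4 with limma-voom, 6 with the replicate block (Slc15a1 higher, and Slc15a2, Slc38a3, Slc38a5, Slc7a1 and Slc7a5 lower, where 6.76% of all genes were called), 7 without control 3 and mutant 3 (12.2% of all genes), and 1 to 4 when a library was left out, 1 without mutant 2 and 4 without mutant 3. The block ended no call on a transporter gene and made none after adjustment. The median log2 change of the transporter genes ran from -0.10 to -0.02 when a library was left out. Values were recomputed singly for 31 of the 38 tested genes of the rule, Slc7a6os included, and 15 of the 31 changed sign in at least 1 setting, Slc6a19, Slc6a20a and Slc6a20b among them. With limma-voom the log2 change of Slc15a2 was -0.84, that of Slc38a3 -0.96 and that of Slc38a5 -1.40, and with a pseudocount of 0.1 that of Slc38a3 was -0.89. The cause was not tested. Depth limits genes near 1 FPKM, such as Slc38a5 with 5 to 78 rebuilt fragments, where counting error alone is large.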

Other observations

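Genes of the amino acid stress response, which follow the factor Atf4 when amino acids run short, gave 0 calls after adjustment over all genes among 14 tested (limma). At an unadjusted p under 0.05, 3 were lower in mutants and 1 was higher, where 1.63% of all tested genes were lower, 1.8% higher and 3.43% either. The median log2 change of the list was -0.37, beside -0.02 for all tested genes. Chac1, which degrades glutathione, read 1.46, 1.49 and 2.30 FPKM across controls, against 0.934, 0.865 and 0.948 FPKM across mutants, without overlap. Its log2 change was -0.65 ± 0.18 (SE). Aldh1l2, a mitochondrial folate enzyme, read 0.537, 1.04 and 0.505 FPKM across controls, against 0.436, 0.274 and 0.189 FPKM across mutants. The low levels of Chac1 and Aldh1l2 rest on 27 to 67 and 23 to 132 rebuilt fragments per library. Sesn2, a leucine sensor, lay higher in every mutant, at 6.44, 5.99 and 6.15 FPKM against 3.93, 3.83 and 5.55 FPKM, with a log2 change of 0.46 ± 0.15. Atf4 itself, the most abundant gene of this list, ranged from 92.6 to 153 FPKM and overlapped between groups.

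Of 11 genes of enterocyte amino acid use, 0 had an unadjusted p under 0.05, where 3.43% of all tested genes did, and their median log2 change was 0.13. Arg2, a mitochondrial arginase, read 727, 602 and 465 FPKM across controls, against 769, 859 and 492 FPKM across mutants, lowest in control 3 and mutant 3 like Slc15a1. Cps1, which makes carbamoyl phosphate for citrulline, ranged from 188 to 254 FPKM with a log2 change of 0.03 and an interval of -0.31 to 0.37. Of 7 markers of the proliferating crypt, 1 was lower at an unadjusted p under 0.05, where 1.63% of all tested genes were, with a list median of -0.19. Without control 3 and mutant 3 together, Mki67 and Top2a were lower at adjusted p of 0.0393 and 0.0298 (limma), where 1.4% of all genes passed. The other crypt markers recomputed singly did not pass there.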
